A study of Mus musculus with 9 samples.

Results

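miR-21a is a mouse microRNA (miRNA) whose single hairpin gives 2 mature arms, miR-21a-5p and miR-21a-3p, and both were followed across 3 genotypes in fat of obese mice. The members were chosen by name: of 860 mature miRNAs listed in each library, 2 bear these names, and both were present in all 9 libraries and passed the filter on low values. Small RNA had been sequenced from whole fat taken under the skin (subcutaneous adipose tissue) of mice labelled as endothelial knockouts of Ago1 and of wild-type littermates. There were 3 groups of 3 mice, each library coming from an individual mouse: Homo KO and Hete KO, the knockout genotypes as the labels spell them, and WT. All groups shared the age of 24 weeks and a diet high in fat and sucrose eaten for 16 weeks from the age of 8 weeks. Ago1 encodes an Argonaute protein, which holds a mature miRNA while it finds its target mRNAs. The sources used here give neither the promoter that drove the deletion nor the strain, and the files list miRNAs only, so the loss of Ago1 was not checked and the samples go by their labels.

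A miRNA hairpin is cut from its primary transcript by Drosha and then by Dicer into a short duplex, from which an Argonaute protein usually keeps one strand, the guide, while the other is degraded. For miR-21 the guide is the 5p arm. It is known as a miRNA of growth, inflammation and fibrosis that represses the mRNAs of Pdcd4 and Spry1, and TGF-beta and BMP signalling can speed its processing through SMAD proteins. In fat it has been linked to the differentiation of adipocyte precursors and to obesity.

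The sequences show which bases set the targets of each arm and how close the relatives of miR-21a are to it. All are mature sequences from RefSeq (GRCm38.p6), 5′ to 3′, with the seed (bases 2 to 8), the stretch that pairs with target mRNAs, in capitals.
miR-21a-5p: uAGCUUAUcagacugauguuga
miR-21a-3p: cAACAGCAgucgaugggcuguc
miR-21c: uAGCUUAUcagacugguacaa
miR-21b: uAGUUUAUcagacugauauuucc
Only miR-21c shared the seed of miR-21a-5p in the RefSeq table, and no other entry there had the seed of miR-21a-3p. miR-590-5p, placed in the seed family list from its human counterpart, is not analysed here. Counted from 1 at the 5′ end of miR-21a-5p, miR-21b differs first by C4U, which lies inside the seed, whereas miR-21c has the same first 15 bases and differs first by A16G. The 2 arms of miR-21a are both 22 bases long, with a GC content of 36.4% for the 5p arm and 59.1% for the 3p arm.

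Mir21a lies on chromosome 11 (GRCm38, minus strand), with its hairpin at 86584067 to 86584158. The 5p arm covers 86584120 to 86584141 and the 3p arm 86584082 to 86584103. In the GENCODE vM21 annotation the hairpin sits on the same strand inside exon 12 of Vmp1, an autophagy gene at 86583865 to 86683836, and within the part of that exon annotated as UTR (86583865 to 86585310). The nearest other annotated miRNA gene, Mir301, is 528846 bases away, so that the hairpin belongs to no close cluster. The relatives come from other chromosomes, miR-21b from chromosome 3 (29636768 to 29636790, plus strand) and miR-21c from chromosome 8 (128278188 to 128278208, minus strand).

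The deposited values are on a quantile-normalized log2 scale, log2(x + 1), so the libraries hold nearly the same ranked set of values, apart from ties, the number of reads is unknown, and a value marks a position in the ranking. Library medians lay between 7.01 and 7.05, and summed back-transformed values between 6681250 and 6681290. The number of miRNAs that shared the bottom value of a library was 102 to 141 in Homo KO, 101 to 152 in Hete KO and 63 to 104 in WT. Skeletal muscle miRNAs (miR-206-3p, miR-133b-3p, miR-1a-3p and miR-133a-3p, 4 of 4 listed, with 1 of them at the bottom value in at least 1 library) made up 0.0456% to 1.25% of the summed value in Homo KO, 0.298% to 16.8% in Hete KO and 0.0722% to 8.97% in WT. The adipocyte list (miR-30a-5p, miR-103-3p, miR-378a-3p and miR-193b-3p) held 5.54% to 6.19% in Homo KO, 5.66% to 6.21% in Hete KO and 4.86% to 5.28% in WT, and the endothelial miR-126a arms 3.06% to 3.35% in Homo KO, 2.10% to 3.28% in Hete KO and 3.43% to 4.52% in WT. The adipocyte share is mostly miR-30a-5p. By mean log2 that list overlapped between genotypes, at 13.91 to 14.18 in Homo KO, 13.97 to 14.39 in Hete KO and 13.78 to 14.12 in WT. Fibroblast and mural cell miRNAs (4 of 4 listed) made up 16.5% in each Homo KO library, 11.2% to 16.6% in Hete KO and 11.5% to 16.5% in WT. Their mean log2 overlapped between genotypes, at 15.19 to 15.21 in Homo KO, 14.82 to 15.32 in Hete KO and 14.99 to 15.23 in WT. Share and mean did not always go together. WT replicate 3, with a share of 11.5%, had a mean of 15.23, above every Homo KO library. Hete KO replicate 2, with a share of 11.2%, also had the lowest mean, 14.82. Erythroid miRNAs (3 of 3) made up 0.125% to 0.171% in Homo KO, 0.0674% to 0.169% in Hete KO and 0.172% to 0.272% in WT. The liver miRNA miR-122-5p had log2 values of 11.71 to 14.52 in Homo KO, 13.43 to 13.84 in Hete KO and 7.48 to 14.99 in WT. In bulk tissue, fewer cells of a type and less RNA per cell cannot be told apart.

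miR-21a-5p was among the most abundant miRNAs of this fat. Its mean over the 9 libraries was 18.30 on the log2 scale, which placed it at rank 6 of 860. It lay between miR-30a-5p (18.33), an adipocyte miRNA, and miR-26a-5p (18.17). It was at 18.47, 18.22 and 18.22 in Homo KO replicates 1 to 3, at 18.47, 17.58 and 18.22 in Hete KO, and at 18.34, 18.81 and 18.34 in WT. WT replicate 2 was the highest library and Hete KO replicate 2 the lowest, and the range of each genotype overlapped those of the others. As a share of the summed back-transformed value it made up 4.56% to 5.44% in Homo KO, 2.93% to 5.44% in Hete KO and 4.96% to 6.90% in WT.

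These values moved in steps, because they are ranks. The 9 libraries held 5 distinct values of miR-21a-5p, from rank 4 in WT replicate 2 to rank 11 in Hete KO replicate 2, and ranks 5 to 7 in the other 7. Hete KO replicate 2 also had the most skeletal muscle miRNA, with a mean of 14.35 over the 4 muscle miRNAs. WT replicate 2, the library with the highest miR-21a-5p, was the next in muscle miRNA at 13.73. The part of muscle miRNA in the values of single libraries was not tested. Differences between genotypes with muscle miRNA as a covariate or removed are given below. When the muscle miRNAs were left out of the ranking, miR-21a-5p stood at rank 10 in Hete KO replicate 2 and at rank 3 in WT replicate 2. Among the 15 miRNAs with a mean over 16, it had the largest spread between mice of one genotype, a pooled SD of 0.32 against a median of 0.17. Without Hete KO replicate 2 that SD was 0.21, rank 4 among the 15.

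miR-21a-3p, the passenger arm, was in the middle of the ranking. Its mean was 5.71, rank 341 of 860, next to miR-496a-3p and miR-133a-5p (both 5.71). It was at 6.17, 4.91 and 6.02 in Homo KO replicates 1 to 3, at 5.09, 5.54 and 5.77 in Hete KO, and at 6.17, 6.02 and 5.71 in WT. Homo KO replicate 2 and Hete KO replicate 1 were the lowest libraries, while the highest values of Homo KO and WT were almost the same, and all 3 genotypes overlapped. The pooled SD within genotypes was 0.46, against 0.33 for the median of the 151 miRNAs within 1 log2 unit of its mean.

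**Figure D1:**
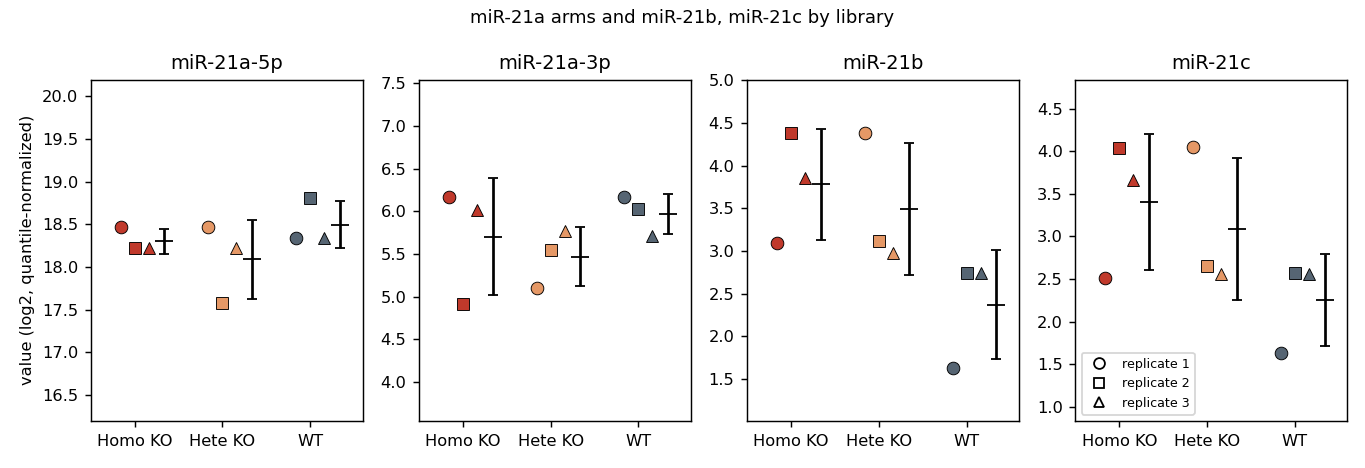
Value of miR-21a-5p, miR-21a-3p, miR-21b and miR-21c in each library (log2, quantile-normalized; each axis spans the same number of log2 units), with mean ± SD of 3 mice beside the points. The 5p arm lies between 17.58 and 18.81 and the 3p arm between 4.91 and 6.17, with overlapping genotypes in both, and Homo KO replicate 2 and Hete KO replicate 1 are low in miR-21a-3p and high in miR-21b and miR-21c.

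The arms of miR-21a were the most uneven pair among the hairpins compared. The 5p arm exceeded the 3p arm by 12.58 ± 0.49 log2 units (SD over 9 libraries), a back-transformed ratio of 4776 to 10462 in Homo KO, 4283 to 10952 in Hete KO and 4667 to 7200 in WT. Over the 141 hairpins with both arms past the filter, the median absolute difference was 3.06 (quartiles 1.44 and 6.22), and the 5p arm was the higher one in 80 and the 3p arm in 61. By the mean difference miR-21a had rank 1, followed by let-7g (12.16), miR-143 (-11.59, the 3p arm being higher) and miR-23b (-11.32). It had rank 1 in 5 of the 9 libraries and ranks 2 or 3 in the others, where let-7g and, in Hete KO replicate 2, also miR-23b lay above it. Hairpins whose rarer arm was too low for the filter are outside this count, and over all 255 hairpins with both arms listed miR-21a again had rank 1.

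**Figure D2:**
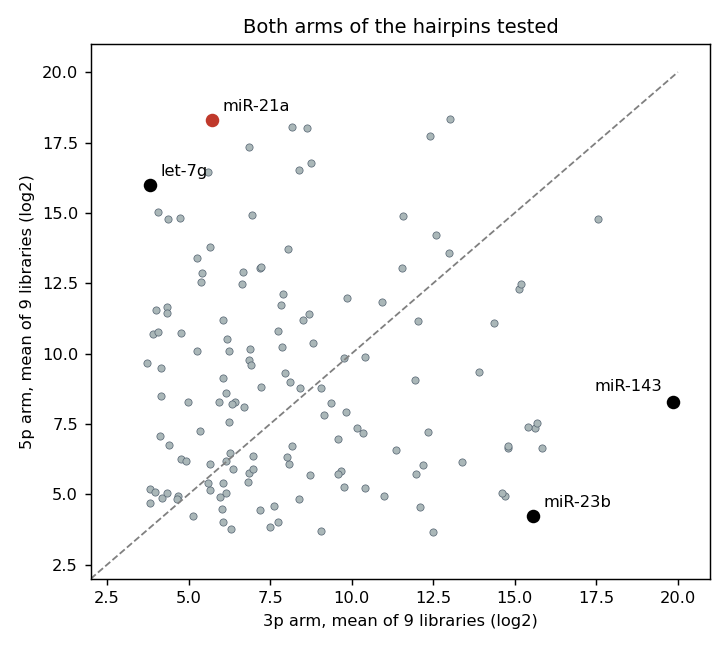
Mean log2 value over 9 libraries of the 5p arm (vertical) against the 3p arm (horizontal) for the 141 hairpins with both arms tested, 1 point per hairpin, with equal arms on the dashed line. miR-21a, at 18.30 and 5.71, lies farther from the line than let-7g, miR-143 and miR-23b.

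The means of both arms were lower in the knockout genotypes than in WT, and none of these differences passed the test. In Homo KO against WT, miR-21a-5p averaged 18.30 ± 0.15 in Homo KO and 18.50 ± 0.27 in WT (SD, n = 3 each), a log2 difference of -0.20 ± 0.22 (SE, 95% interval -0.70 to 0.31, limma adjusted p = 0.602). The interval runs from a ratio of 0.615 to one of 1.24. The difference was -0.038 without WT replicate 2, and again -0.038 without the 3 libraries highest in skeletal muscle miRNA (Hete KO replicate 2 and WT replicates 1 and 2). Leaving these out makes WT replicate 3 the only WT library. With every library kept, the difference was -0.22 with the mean of the muscle miRNAs as a covariate (the muscle covariate) and -0.30 with the muscle miRNAs removed. miR-21a-3p averaged 5.70 ± 0.69 in Homo KO and 5.97 ± 0.24 in WT, a log2 difference of -0.27 ± 0.34 (interval -1.03 to 0.50, limma adjusted p = 0.632). Homo KO replicate 2 set that sign: without it the difference was 0.13, and without the 3 muscle-rich libraries it was -0.0091. The difference was -0.027 with the muscle covariate and -0.29 with the muscle miRNAs removed. Of the 489 miRNAs tested 16, or 3.27%, passed in this comparison, and neither arm was among them. The 2 genotypes did not overlap in 32.7% of the tested miRNAs and overlapped in both arms. The median log2 difference of all tested miRNAs was 0.07.

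In Hete KO against WT, miR-21a-5p averaged 18.09 ± 0.46 in Hete KO and 18.50 ± 0.27 in WT, a log2 difference of -0.41 ± 0.22 (SE, interval -0.91 to 0.10, limma adjusted p = 0.401). Without Hete KO replicate 2 the difference was -0.15, without WT replicate 2 it was -0.25, and without the 3 muscle-rich libraries it was 0.0044. Those 3 libraries hold both the lowest and the highest miR-21a-5p value. With every library kept, the difference was -0.41 with the muscle covariate and -0.44 with the muscle miRNAs removed. miR-21a-3p averaged 5.47 ± 0.34 in Hete KO and 5.97 ± 0.24 in WT, a log2 difference of -0.50 ± 0.34 (interval -1.26 to 0.27, limma adjusted p = 0.499), which was -0.31 without Hete KO replicate 1 and -0.28 without the 3 muscle-rich libraries. For the 3p arm it was -0.46 with the muscle covariate and -0.51 with the muscle miRNAs removed. The comparison of Hete KO with WT called 2 of 489 miRNAs, or 0.409%, and again neither arm, and the genotypes did not overlap in 17.2% of the tested miRNAs. The WT mice are shared by both comparisons, so the lower means in Homo KO and Hete KO are not independent of each other.

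In Homo KO against Hete KO, the means of both arms were higher in Homo KO, by 0.21 ± 0.22 for miR-21a-5p (SE, interval -0.29 to 0.72, limma adjusted p = 0.87) and by 0.23 ± 0.34 for miR-21a-3p (interval -0.54 to 0.996, limma adjusted p = 0.938). Without Hete KO replicate 2 the difference of the 5p arm was -0.042, and without Homo KO replicate 1 that of the 3p arm was -0.0034. No miRNA of the 489 (0%) passed here by limma, with 41 at an unadjusted p under 0.05, and the genotypes did not overlap in 12.3% of them. A moderated F-test over the 3 genotypes gave a limma adjusted p of 0.514 for miR-21a-5p and 0.615 for miR-21a-3p, where 1.23% of all miRNAs passed. In order of their means both arms ran from Hete KO through Homo KO to WT, and no neighbours in that order passed the test.

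No difference in the gap between the arms passed the test. The gap was 12.30, 13.30 and 12.20 log2 units in Homo KO replicates 1 to 3, 13.38, 12.03 and 12.45 in Hete KO, and 12.17, 12.79 and 12.63 in WT. The largest gaps were those of Hete KO replicate 1 and Homo KO replicate 2, the libraries with the least miR-21a-3p, and the genotypes overlapped. The gap differed by 0.07 ± 0.41 between Homo KO and WT (SE, interval -0.83 to 0.97, limma adjusted p = 0.936), by 0.09 ± 0.41 between Hete KO and WT (interval -0.81 to 0.99, limma adjusted p = 0.975) and by -0.02 ± 0.41 between Homo KO and Hete KO (interval -0.92 to 0.88, limma adjusted p = 0.981). Of the 141 hairpins, 1 (0.709%) passed in Homo KO against WT and none (0%) in the other comparisons, where 14 for Hete KO against WT and 3 for Homo KO against Hete KO had an unadjusted p under 0.05. For Homo KO against WT the interval spans a change in the ratio of the arms from 0.564-fold to 1.96-fold.

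**Figure D3:**
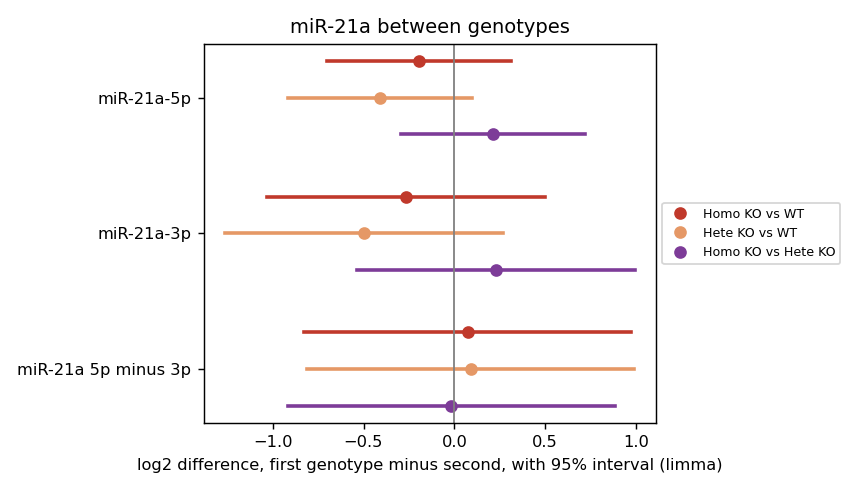
Log2 differences between genotypes (first minus second named, point) with 95% intervals from limma (line) for miR-21a-5p, miR-21a-3p and the difference between the arms. Every interval includes 0, and that of the 3p arm in Hete KO against WT reaches lowest, from -1.26 to 0.27.

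The arms did not vary together over the mice to a degree that could be told from none. Over the 9 libraries Pearson's r was 0.26 (exact permutation test, two-sided p = 0.501) and Spearman's rho was 0.40 (exact permutation p = 0.284). Without the 2 libraries farthest from the median of miR-21a-5p, Hete KO replicate 2 and WT replicate 2, r was 0.088 (exact permutation p = 0.852, n = 7). With the genotype means removed, r was 0.0018. By r with miR-21a-5p, the 3p arm had rank 172 of 488 miRNAs.

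The miRNAs most like each arm were ranked by Pearson's r over the 9 libraries, as a description. For miR-21a-5p the first 4 of 488 were miR-126a-3p (r = 0.93), which is typical of endothelial cells, miR-326-3p (0.89), let-7j (0.89) and miR-381-3p (0.89). Those most opposed were miR-425-3p (-0.91) and miR-1843a-3p (-0.91). miR-126a-3p was at 17.58, 17.58 and 17.45 in Homo KO replicates 1 to 3, at 17.58, 16.84 and 17.45 in Hete KO, and at 17.58, 17.99 and 17.83 in WT. Hete KO replicate 2 was the lowest and WT replicate 2 the highest library for both miRNAs. Without this pair r fell to 0.36 over 7 libraries, against 0.83 for miR-326-3p, 0.81 for let-7j and 0.74 for miR-381-3p. miR-21a-5p exceeded miR-126a-3p by 0.51 to 0.89 log2 units in every library. The other arm of that hairpin, miR-126a-5p, was not among the first 4, and the excess over it ranged more widely, from 3.06 to 3.99. miR-126a-5p was highest in WT replicate 2 too (15.34). It was at 14.52 in Hete KO replicates 1 and 2 alike, where miR-21a-5p was at 18.47 and 17.58.

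For miR-21a-3p the most alike were miR-190b-5p (r = 0.86), miR-1249-3p (0.85), miR-92a-1-5p (0.76) and miR-370-3p (0.74), of which miR-92a-1-5p is itself a passenger arm. miR-190b-5p followed it less closely without the 2 libraries farthest from the median of the 3p arm (r = 0.21, n = 7). Those most opposed were miR-151-3p (r = -0.95) and the epithelial miR-141-3p (-0.70). miR-141-3p was at 7.59 in Hete KO replicate 1 and at 5.77 or less in the other libraries. miR-151-3p was at 11.51, 11.71 and 11.51 in Homo KO replicates 1 to 3, at 11.71, 11.55 and 11.55 in Hete KO, and at 11.43, 11.47 and 11.57 in WT. Its highest libraries, Homo KO replicate 2 and Hete KO replicate 1, were the lowest for miR-21a-3p, and r was -0.80 over the other 7. The mean of the 6 epithelial markers was 8.40 in Hete KO replicate 1, 5.25 in Homo KO replicate 2 and 4.59 to 5.76 in the libraries other than Hete KO replicate 1; its part in the low miR-21a-3p was not tested.

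**Figure D4:**
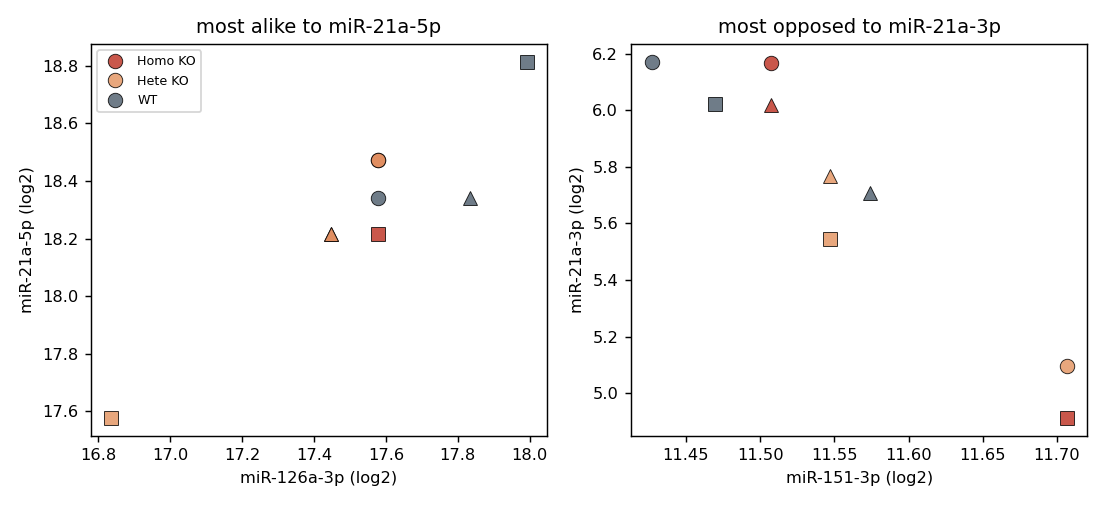
Values of 9 libraries (log2): miR-21a-5p against miR-126a-3p (left) and miR-21a-3p against miR-151-3p (right), coloured by genotype, with circles, squares and triangles for replicates 1, 2 and 3. On the left Homo KO and Hete KO replicates 1 share a position, as do replicates 3, and Hete KO replicate 2 and WT replicate 2 lie at the ends; on the right Homo KO replicate 2 and Hete KO replicate 1 lie at 11.71.

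The close relatives miR-21b and miR-21c were near the bottom of the range, with means of 3.21 and 2.92, and did not pass the filter on low values. miR-21b was at 3.10, 4.38 and 3.86 in Homo KO replicates 1 to 3, at 4.38, 3.12 and 2.98 in Hete KO, and at 1.63, 2.74 and 2.74 in WT. All knockout libraries lay above all WT libraries for miR-21b. Taking each genotype alone, this held for 12.8% of all listed miRNAs in Homo KO against WT and for 7.21% in Hete KO against WT. The share with both genotypes above WT was not counted. With no filter, the log2 difference was 1.41 ± 0.53 in Homo KO against WT (SE, limma adjusted p = 0.238) and 1.12 ± 0.53 in Hete KO against WT (limma adjusted p = 0.445), so that neither passed in fits that called 1.05% and 0.233% of the 860 miRNAs. miR-21c, which has the seed of miR-21a-5p, was at 2.52, 4.04 and 3.66 in Homo KO, at 4.05, 2.65 and 2.56 in Hete KO, and at 1.63, 2.58 and 2.56 in WT. Its knockout and WT libraries overlapped, and its differences from WT were 1.15 ± 0.56 in Homo KO (limma adjusted p = 0.351) and 0.83 ± 0.56 in Hete KO (limma adjusted p = 0.608). Homo KO replicate 2 and Hete KO replicate 1, lowest in miR-21a-3p, were highest in both relatives. Each value of the relatives was shared with other miRNAs of the same library, up to 46 at 1 value. The sources used here do not name the counting tool, so how reads that match several of these near-identical sequences were assigned is not known, and the values of miR-21b and miR-21c are uncertain.

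Other miRNAs of the processes in which miR-21 is known to act were counted from lists. Of the fibrosis-linked miRNAs 13 of 14 were tested, and none passed in any comparison of genotypes, where 3.27%, 0.409% and 0% of all tested miRNAs passed in Homo KO against WT, Hete KO against WT and Homo KO against Hete KO. At these shares a count of 0 says nothing particular about the list. The median log2 difference was 0.07 in Homo KO against WT and 0.02 in Hete KO against WT, against 0.07 and -0.02 for all tested miRNAs. Its most abundant members, miR-29a-3p and miR-29c-3p, which repress collagen mRNAs, had log2 differences of 0.14 ± 0.09 and 0.21 ± 0.13 in Homo KO against WT (SE, limma adjusted p = 0.385 and 0.376). Among miRNAs of macrophages and inflammation 11 of 12 were tested, with 1 higher in Homo KO than in WT and none in Hete KO, and with medians of 0.23 and 0.02. In Homo KO against WT 1.64% of all tested miRNAs were called higher. The called one was miR-142a-5p, of blood cells, at 11.83 ± 0.19 in Homo KO and 10.57 ± 0.01 in WT (SD, n = 3 each, limma adjusted p = 0.0314). Its call ended without any 1 of the Homo KO or WT libraries or Hete KO replicate 3, with limma adjusted p of 0.0537 to 0.128. It also ended with the muscle miRNAs as a covariate (limma adjusted p = 0.0935), with the number of miRNAs at the bottom value as a covariate (0.0862) and without the 3 muscle-rich libraries (0.0774), while the log2 difference stayed between 1.08 and 1.56 over all alternatives, against 1.26 as reported. The mean of the 4 leukocyte markers was 11.90 to 12.12 in Homo KO, 11.33 to 11.77 in Hete KO and 11.55 to 11.83 in WT, and its part in the difference of miR-142a-5p was not tested. These markers include miR-142a-3p, the other arm of the same hairpin, so the mean is not separate from it. miR-142a-3p is also on the list of macrophages and inflammation and was not called. The abundant members miR-125a-5p and miR-22-3p were at 0.50 ± 0.29 and 0.21 ± 0.15 (SE) in Homo KO against WT, without passing. Neither list had a member called in Homo KO against Hete KO.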

How the data were processed

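Small RNA libraries (Trizol RNA, TruSeq small RNA kit, per the labels' protocols) of 9 mice were grouped by their titles, which match the genotype labels. The genome build was mm10, per the submitters' processing notes, and the sources used here name no aligner, counter, miRNA annotation or normalization. The deposited files hold 1 log2 value per miRNA. Their names speak of FPKM, but the values run from 0 to 19.99 with the same maximum in every library, so they were read as log2(x + 1) after quantile normalization, which hides differences in depth. No counts could be recovered, and no counting interval is given.

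Of 860 miRNAs 489 were tested, those that exceeded the bottom value of the library in 3 or more libraries with a mean of at least 3.46, which is log2(10 + 1). limma 3.58.1 in R 4.3.3 (variance trend, all 9 libraries, no covariate, Benjamini-Hochberg adjusted p under 0.05) compared the genotypes, and the 5p minus 3p values of 141 hairpins, paired by name. In simulated data for Homo KO against WT (489 miRNAs), 32.8% of log2 changes of 0.5, 76.1% of changes of 1 and 98.5% of changes of 2 were recovered. The simulation gave a change to a far larger share of miRNAs than the 3.27% called in these data, and drew the noise of each miRNA independently. The rates may therefore be too high for these data. How these rates depend on the share of miRNAs given a change was not tested. The recovery of a change in either arm of miR-21a was not tested either. Named were both arms, the listed seed relatives, the 2 most abundant and all called members of each list, the 4 most alike and 2 most opposed miRNAs and the neighbours in level; the hairpins ranked beside miR-21a were named after their values were seen. The members and lists were chosen with earlier results of these data known, and 1 further list of functionally linked miRNAs is not reported here. RefSeq held 698 of the 860 names. Figures were drawn with matplotlib 3.10.9.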

Additional observations from a re-analysis of the deposited data

How the results depend on the processing

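Neither arm, nor the gap between them, passed the test in any comparison under any alternative: 222 values of 11 results had adjusted p between 0.196 and 1, 205 kept their direction (for F-tests, their side of the threshold) and 17 reversed it. The 3p arm was below the stricter filter, so that setting gave no value for it or for the gap. The correlation of the arms stayed between 0.070 and 0.42, with no exact p under 0.05.

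Without the 3 libraries highest in muscle miRNA, miR-21a-5p was at 0.0044 in Hete KO against WT and -0.042 in Homo KO against Hete KO, and the gap at -0.029 in Homo KO against WT. The gap in Homo KO against WT was also -0.0085 with the muscle miRNAs removed and -0.20 with their mean as a covariate, and in Homo KO against Hete KO it was 0.0084 with a pseudocount of 10 and 0.085 with array weights. With 1 library left out at a time, miR-21a-5p ranged from -0.042 to 0.40 in Homo KO against Hete KO, and miR-21a-3p from -0.50 to 0.13 in Homo KO against WT and from -0.0034 to 0.62 in Homo KO against Hete KO. The gap ranged from -0.28 to 0.27 in Homo KO against WT, -0.29 to 0.38 in Hete KO against WT and -0.37 to 0.36 in Homo KO against Hete KO. The causes were not tested.

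The number of miRNAs called over the whole table, 16 in Homo KO against WT, was 9 with no filter, 37 with the muscle miRNAs removed, 74 with array weights, 3 with the muscle covariate, 0 with a covariate for how many miRNAs shared the bottom value (limma, where the fit as reported had 117 at an unadjusted p under 0.05), 8 without the 3 muscle-rich libraries and 2 to 25 with 1 library left out. For Hete KO against WT, 2 became 7 with the stricter filter, 7 with the muscle miRNAs removed, 1 with no variance trend, 34 with array weights, 0 with the bottom-value covariate (77 at an unadjusted p under 0.05 in the fit as reported), 10 without the muscle-rich libraries, 1 with only the groups compared and 1 to 24 with 1 library left out. For Homo KO against Hete KO, 0 became 4 without the muscle-rich libraries.

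Whether replicate numbers pair the mice was not settled. Same-numbered libraries had correlations of their deviations from -0.282 to 0.548, over 0.1 in only 5 of 9 pairs. Yet 7 of 9 libraries correlated best with a library of their own number, so some shared structure by number remains possible. With the replicate number as a block, 25 miRNAs were called in Homo KO against WT and 15 in Hete KO against WT, with neither arm of miR-21a among them. Leaving out Hete KO replicate 2 for the spread of miR-21a-5p within genotypes was chosen after seeing the data. So was dropping the 2 libraries farthest from the median of miR-21a-5p for its likeness to miR-126a-3p and the other miRNAs named. The matching drop for miR-21a-3p, used for miR-190b-5p and miR-151-3p, was not planned beforehand either. With 3 mice a group and values that are shared ranks, the intervals given set the precision, and depth could not be judged.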
